A study of Anolis sagrei with 10 samples.

Results

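Genes of the cell cycle and of DNA replication were examined in limb buds of wild-type brown anole embryos (Anolis sagrei, a lizard) at stage 7, in 5 forelimb and 5 hindlimb RNA-seq libraries that carry the replicate numbers 1 to 5 in both limbs. Per the labels' protocols, pairs of limb buds were taken, so each library holds all cell types of the bud; how many embryos went into a library is not given in the sources used here. The genes were chosen by symbol, not by their values. The symbols sought were the cyclins A, B, D and E, numbered CDKs, CDKN genes, MCM, ORC and GINS genes, E2F factors, CENP genes, BUB, Aurora and polo-like kinases, CDC genes, replicative polymerases, PCNA, MKI67 and TOP2A. Genes without a matching symbol are not analysed here, among them MKI67, CCND2, CCNB2, CDKN1C, CDKN2B, CENPA, CENPF, AURKB and CDC25A. Gene families named below hold their matched members only. Of 25920 identifiers in the count tables, 12476 had a symbol, 98 of these matched, and the 96 with 10 or more counts in at least 5 libraries were kept. All 96 also passed the filter on low counts of the test. The matched genes left out were CDK3, with at most 26 counts in a library, and CDKN3, also with at most 26.

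A dividing cell passes from G1, when D cyclins with CDK4 or CDK6 inactivate the retinoblastoma protein and release E2F factors, to S phase, when DNA is copied. Origins are first licensed: the origin recognition complex and CDC6 load the MCM helicase, which CDC45 and the GINS complex then activate, and polymerases working with the PCNA clamp copy the strands. In mitosis CDK1 with cyclin B drives entry, most CENP proteins build the centromere and kinetochore, BUB proteins hold the checkpoint, and the anaphase promoting complex ends it. The outgrowing limb bud is a tissue of dividing mesenchyme, in which cells leave the cycle as they form cartilage or muscle. In bulk RNA, fewer cells in a phase and less RNA per cell cannot be told apart.

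The libraries held 41808148 to 54998469 counts, and the 96 genes took 0.828% to 0.934% of them. The limb-type genes checked the labels: TBX5 was at 427.8 to 554.4 CPM (counts scaled to a common library size with TMM factors) in forelimb and at 1.002 to 2.875 CPM in hindlimb, while TBX4 and PITX1 were at most 0.550 CPM in forelimb and at least 25.8 CPM in hindlimb. Of the limb mesenchyme markers, MSX1 and TWIST1 were found in every library. Hindlimb replicate 4 and forelimb replicate 1 stood apart from the others of their limb. Hindlimb replicate 4 had the fewest detected genes (17132), the lowest summed level of 6 cartilage markers (590.7 CPM, against 1242 to 1633 CPM in the other hindlimb libraries) and the highest of 7 ectoderm markers (605.3 CPM, against 383.6 to 466.2 CPM). It was also the lowest hindlimb library for endothelium (28.5 CPM, against 40.6 to 62.5 CPM) and neural markers (19.8 CPM, against 40.1 to 52.5 CPM). The same held for immune (16.8 CPM, against 25.5 to 30.7 CPM) and muscle markers (1284 CPM, against 1369 to 2148 CPM). Single markers in these sums did not all follow. SOX10, ELAVL3, ELAVL4, CSF1R, SPI1, CD74, CORO1A, ACTC1, MYOD1, PAX3 and DES were lowest of the hindlimb libraries there. NEFM (5.04 CPM) and PTPRC (2.03 CPM) were highest there, and MYOG was at 207.3 CPM, against 146.2 to 227.3 CPM. KDR (10.2 CPM, against 9.87 to 12.8 CPM) and HAPLN1 (16.5 CPM, against 13.2 to 27.7 CPM) lay within range. So did GRHL3 (5.55 CPM, against 1.82 to 6.38 CPM). The other cartilage and endothelium markers were lowest there, and the other ectoderm markers highest. COL2A1 and SOX9 gave 405.7 and 119.9 CPM of the cartilage sum. For blood and limb mesenchyme markers hindlimb replicate 4 lay within the range of the others. Forelimb replicate 1 had 149.5 CPM of 7 blood markers, against 15.2 to 18.2 CPM in the other forelimb libraries. Its sum of 8 muscle markers was 694.4 CPM, against 1557 to 2445 CPM, and ACTC1 gave 432.7 CPM of it. ACTC1, TNNT2, DES, MYOG, MYOD1 and MYMK were lowest of the forelimb libraries there. PAX3 was highest (30.3 CPM, against 15.7 to 21.6 CPM), and MYF5 lay within range (10.9 CPM, against 7.35 to 12.3 CPM). Forelimb replicate 1 also had the highest forelimb sums of immune (32.55 CPM, against 26.0 to 27.8 CPM) and endothelium markers (64.82 CPM, against 38.77 to 62.81 CPM). CD74, TIE1 and ESAM were highest there, and the other markers of these sums lay within range. Group counts of direction that changed without replicate number 4, and many genes whose fitted difference moved by over 1.5 times, are given with and without that number.

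The limbs were compared with the replicate number as a block (edgeR quasi-likelihood test, Benjamini-Hochberg adjustment over 15595 genes), and a gene is named as called at an adjusted p under 0.05. Between forelimb and hindlimb buds, 0 of the 96 genes were called, where 1.33% of all genes tested were. An unadjusted p under 0.05 was given to 10 of the 96 (10.4%), against 13.8% of all genes, so the share is near the background. Of these 10, 3 were higher in forelimb, where 7.44% of all genes were, and 7 in hindlimb, where 6.35% were. Without the block the call count was also 0, with 2 at an unadjusted p under 0.05. DESeq2 with the block called 1, CDK6. The authors' deposited table, made without a stated design, likewise held 0 of the 96 at an adjusted p under 0.05, and 93 of 14978 genes with an adjusted p.

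Most differences between the limbs were bounded closely. The fitted log2 fold changes, forelimb over hindlimb, ran from -0.41 to 0.51 with a median of -0.03, where all genes tested had a median of 0.00010, and 90 of the 96 were under 1.2-fold in size. The 95% interval of the difference lay within 1.5-fold either way for 89 of the 96 genes, against 63.4% of all genes tested. Among genes at 10 CPM or more it did so for 85 of 87, against 93.5% of all such genes. The 7 genes whose interval went past 1.5-fold were CDK6, MCM7 and 5 genes of low count: CCNA1, CDK15, CDKN2C, CDKN2D and CDC20B. Those 5 were each below 3 CPM in every library, and their intervals include a limb difference of 1.5-fold. No gene of the 96 had limbs that did not overlap, where 1.19% of all genes had.

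**Figure D1:**
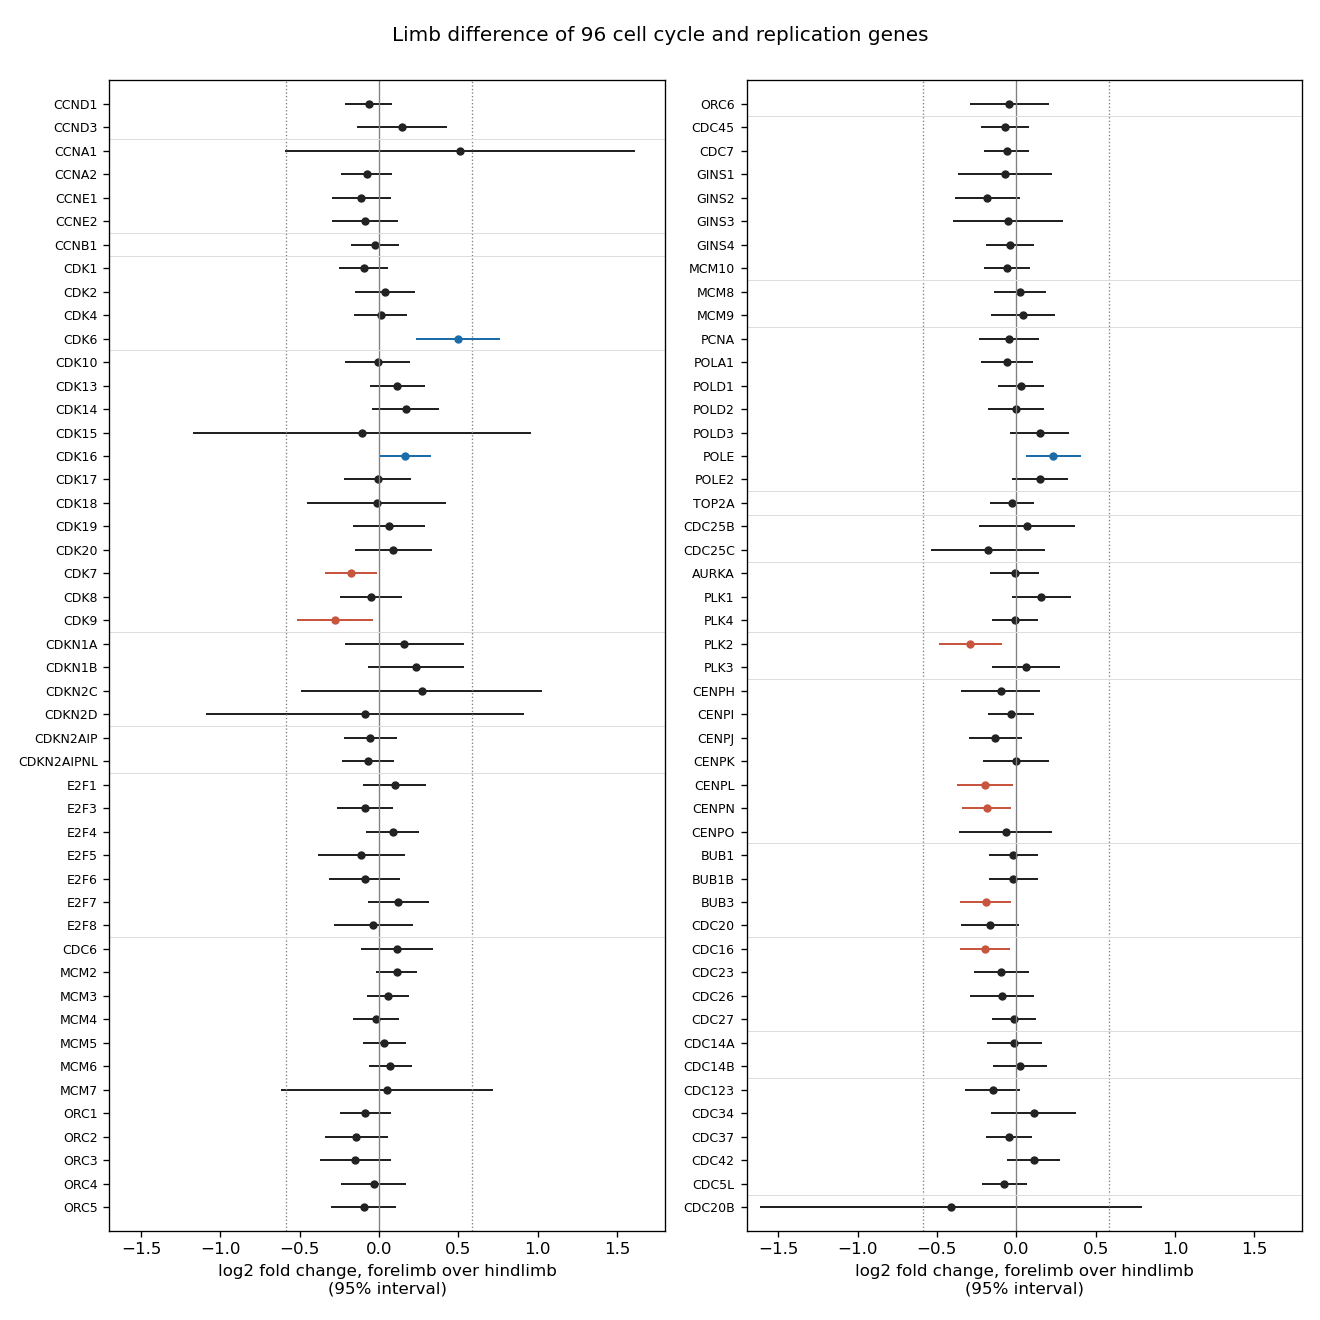
Fitted log2 fold change (forelimb over hindlimb) of each of the 96 genes with its 95% interval, ordered by role; dotted lines mark 1.5-fold, and colour marks an unadjusted p under 0.05 (blue, higher in forelimb; red, higher in hindlimb). The intervals of 89 genes stay between the dotted lines, and CDK6 is the gene of ample count that lies farthest from 0.

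Among G1 regulators, CDK6 had the smallest p of the 96. CDK6 (ENSACAG00000015273), a partner of D cyclins that phosphorylates the retinoblastoma protein, was at 20.3, 15.8, 13.4, 12.7 and 13.4 CPM in forelimb replicates 1 to 5. In hindlimb replicates 1 to 5 it was at 13.02, 11.01, 10.2, 8.07 and 11.2 CPM. It was higher in forelimb in 5 of 5 pairs, yet the limbs overlapped, since hindlimb replicate 1 lay above forelimb replicate 4. The log2 fold change was 0.50 ± 0.12 (SE; 95% interval 0.24 to 0.75), with an edgeR adjusted p of 0.0624. Over the alternatives run, the adjusted p ranged from 0.00891 (DESeq2 with block) to 0.854 (edgeR without block), while the fold change stayed between 0.46 and 0.56. CDK6 was highest in forelimb replicate 1, the library high in blood markers and low in the sum of muscle markers. It was lowest in hindlimb replicate 4. The log2 fold change was 0.47 without replicate number 1 and 0.46 without number 4, with edgeR adjusted p of 0.0885 and 0.206.

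CDK4, which shares these partners and targets, had a log2 fold change of 0.01 ± 0.07 (95% interval -0.15 to 0.17; 0.05 without number 4). It was at 56.7 to 64.6 CPM in forelimb and 49.9 to 70.4 CPM in hindlimb, and higher in forelimb in 2 of 5 pairs. CCND1, the D cyclin induced by growth signals, was at 65.6 to 78.8 CPM in forelimb and 70.2 to 83.1 CPM in hindlimb, and the fitted difference was -0.06 ± 0.07. CCND3 had a fitted difference of 0.14 ± 0.13. The values of CCND1, CCND3 and CDK4 overlapped between the limbs, and whether CDK6 differs from them in its limb difference was not tested.

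The CDK inhibitors had wider limb intervals than most genes of the set, and 0 of 4 were called. CDKN1A (p21), which halts the cycle after damage or on differentiation, was at 8.12 to 11.7 CPM in forelimb and 5.66 to 12.5 CPM in hindlimb, and its fitted difference was 0.16 ± 0.17, or -0.0099 without number 1. CDKN1B (p27), a brake kept high in resting cells, was at 16.7, 23.4, 17.3, 17.6 and 27.7 CPM in forelimb and at 13.7, 16.3, 17.9, 21.0 and 17.5 CPM in hindlimb. Its forelimb libraries 2 and 5 were the highest, and it was higher in forelimb in 3 of 5 pairs (0.23 ± 0.14, edgeR adjusted p 0.488; 0.36 without number 4, adjusted p 0.421). CDKN2C and CDKN2D, INK4 inhibitors of CDK4 and CDK6, were between 0.444 and 2.73 CPM in all libraries.

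The E2F factors, which switch on or repress the genes of S phase, showed 0 calls in 7 genes, with log2 fold changes from -0.11 to 0.12. E2F1, an activator, was at 27.2 to 37.2 CPM in forelimb and 26.1 to 35.2 CPM in hindlimb (0.10 ± 0.09). CCNE1 and CCNE2, the E cyclins that trigger S phase with CDK2, had -0.11 ± 0.08 and -0.09 ± 0.09, and CCNE2 had -0.05 without number 4. CDK2 itself had 0.04 ± 0.08 (0.10 without number 4), at 72.1 to 99.7 CPM in forelimb and 76.5 to 92.4 CPM in hindlimb.

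Of 13 origin licensing genes, 6 had a fitted value toward forelimb and 7 toward hindlimb, and 0 were called. The split was 8 and 5 without number 4, and 7 and 6 without number 5. MCM2, a subunit of the helicase, was at 356.1, 326.9, 299.5, 265.3 and 256.3 CPM in forelimb replicates 1 to 5 and at 334.0, 290.9, 269.2, 252.7 and 244.8 CPM in hindlimb. Each pair was higher in forelimb, but the differences between numbers were larger than those between limbs (0.11 ± 0.06, edgeR adjusted p 0.429). MCM5 had 0.03 ± 0.06 and CDC6, the loader, 0.11 ± 0.10 (0.03 without number 4 and 0.21 without number 1). All 6 ORC subunits had fitted values toward hindlimb, from -0.15 to -0.04, and 0 of them had an unadjusted p under 0.05. Without number 4, 4 of the 6 lay toward hindlimb, with values from -0.10 to 0.04. Without number 5, 5 of the 6 did, with values from -0.14 to 0.05. ORC1 had -0.09 ± 0.07 with all numbers and -0.03 without number 4. MCM7 had pairs that differed widely in size and direction. MCM7 was higher in hindlimb in 4 of 5 pairs, yet its fitted value was 0.05 with all numbers. Without number 5 it was -0.24. It was at 107.5 CPM in forelimb replicate 5 and 44.5 CPM in hindlimb replicate 5, but at 62.4 and 89.1 CPM in forelimb and hindlimb replicate 1, and its interval ran from -0.61 to 0.71.

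At the fork, all 7 genes of the helicase activation group (CDC45, CDC7, MCM10 and GINS1 to GINS4) had fitted values toward hindlimb, the largest in GINS2 (-0.18 ± 0.09, edgeR adjusted p 0.402, higher in hindlimb in 5 of 5 pairs). Without number 4, or without number 2, 5 of the 7 did. GINS2 was at 19.4, 26.5, 27.3, 23.6 and 23.5 CPM in forelimb and at 22.3, 29.3, 30.8, 29.6 and 24.6 CPM in hindlimb. PCNA, the sliding clamp, was at 369.3 to 509.9 CPM in forelimb and 378.3 to 522.4 CPM in hindlimb (-0.05 ± 0.08, and 0.02 without number 4). POLA1, which starts each new strand with primase, had -0.06 ± 0.07 (-0.10 without number 4).

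POLE, the catalytic subunit of the leading strand polymerase, was at 142.1, 95.1, 140.6, 129.4 and 90.0 CPM in forelimb replicates 1 to 5 and at 152.4, 74.6, 115.3, 99.8 and 75.1 CPM in hindlimb. It was higher in forelimb in 4 of 5 pairs, the exception being number 1. The log2 fold change was 0.23 ± 0.08 with an edgeR adjusted p of 0.189, and without replicate number 1 it was 0.32 with an adjusted p of 0.0297, the lowest over the alternatives, of which the highest was 1.0. POLE2, its partner subunit, had 0.15 ± 0.08 (edgeR adjusted p 0.428) and was also higher in forelimb in 4 of 5 pairs.

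**Figure D2:**
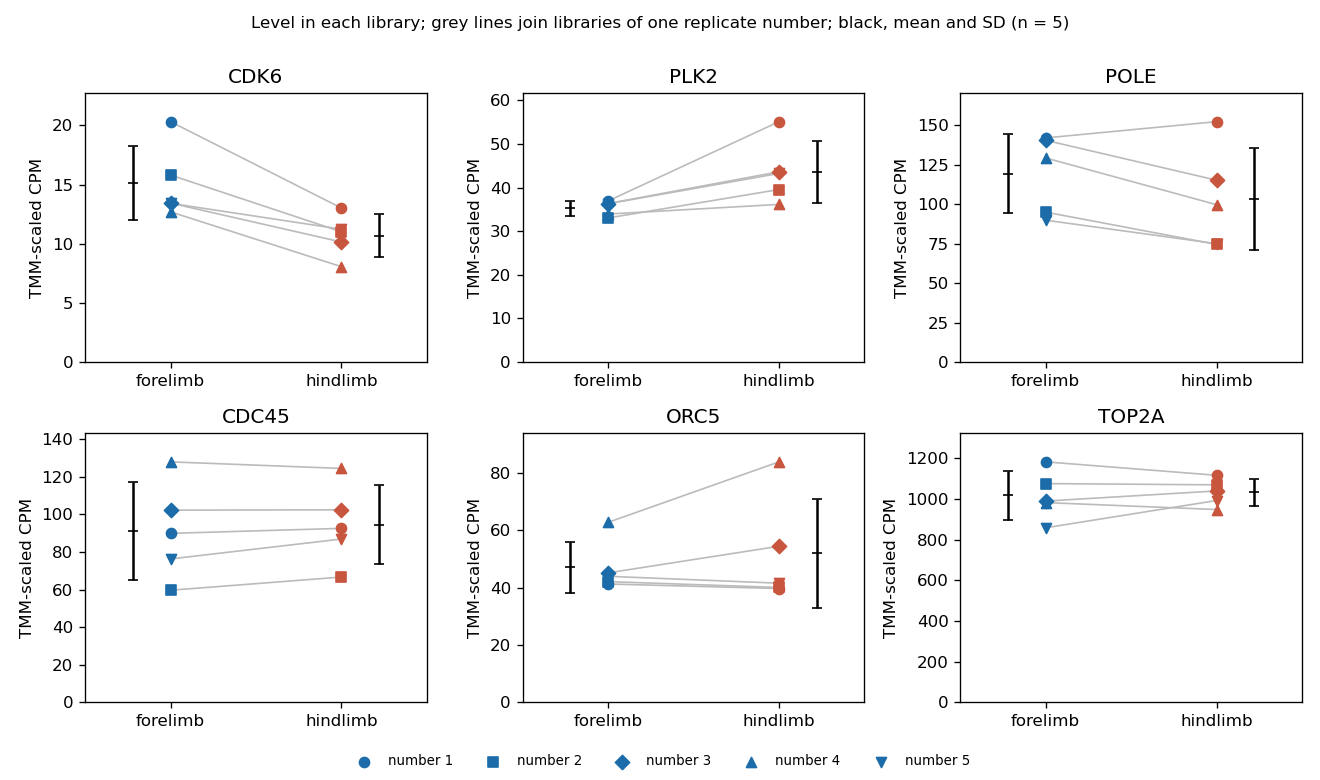
TMM-scaled CPM of 6 genes in each library, with symbols for replicate numbers, grey lines joining the libraries of a number, and black marks for the mean and SD of 5 libraries. Along each line CDK6 is lower and PLK2 higher in hindlimb, within overlapping ranges, whereas CDC45 and ORC5 are spread by number, with number 4 at the top in both limbs.

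In the genes grouped as mitotic, PLK4 and CENPJ among them whatever their role, 19 of 21 fitted values lay toward hindlimb and 0 were called. Without number 4 it was 12 of 21, and without another number 15 to 19. All 7 matched CENP genes, all 4 spindle checkpoint genes and all 4 anaphase promoting complex genes had negative log2 fold changes, from -0.20 to -0.0018. Without number 4, 5 of the 7, 2 of the 4 and 4 of the 4 did. Without number 5 it was 6 of the 7, 2 of the 4 and 4 of the 4. Without number 3, 6 of the 7 CENP genes did, and without number 2, 3 of the 4 anaphase promoting complex genes did. With no filter on low counts, 6 of the 7 CENP genes did, and 18 of the 21 mitotic genes lay toward hindlimb. Several of the values were small: -0.0018 ± 0.09 in CENPK, -0.0148 in CDC27, -0.0183 in BUB1 and -0.0189 in BUB1B. BUB3, which brings checkpoint kinases to kinetochores, was at 196.4, 221.3, 219.9, 270.3 and 255.4 CPM in forelimb replicates 1 to 5. In hindlimb it was at 213.8, 230.8, 253.0, 378.6 and 273.8 CPM. Hindlimb replicate 4 was far above the others, and BUB3 was higher in hindlimb in 5 of 5 pairs (-0.19 ± 0.07, edgeR adjusted p 0.238). Without number 4 the value was -0.12 (edgeR adjusted p 0.548). CENPN, a reader of centromeric chromatin, had -0.19 ± 0.07 (edgeR adjusted p 0.240), and CDC16, a subunit of the anaphase promoting complex, had -0.20 ± 0.07 (edgeR adjusted p 0.229). Both were higher in hindlimb in 5 of 5 pairs, with their highest value in hindlimb replicate 4, and each had -0.14 without number 4.

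Among further genes of S phase to mitosis, the fitted values with all numbers were positive for PLK1. They were negative for CDK1, CCNB1, CCNA2, AURKA, CDC20, BUB1 and TOP2A. CDK1 was at 286.8 to 352.0 CPM in forelimb and 287.7 to 457.1 CPM in hindlimb (-0.10 ± 0.07, and -0.03 without number 4). CCNB1, its cyclin, had -0.03 ± 0.07, with 0.02 without number 4 and 0.001 without number 5. CCNA2, the cyclin of S and G2 phases, had -0.08 ± 0.07 (-0.04 without number 4). AURKA, the kinase of spindle poles, had -0.01 ± 0.07 (0.01 without number 4). PLK1, a kinase of mitotic entry and exit, had 0.16 ± 0.08 (edgeR adjusted p 0.431), with 0.08 without number 5 and 0.23 without number 1. CDC20, the activator of the anaphase promoting complex, had -0.16 ± 0.08 (edgeR adjusted p 0.403; -0.08 without number 1), and BUB1, a checkpoint kinase, had -0.02 ± 0.07 (0.0052 without number 4). TOP2A, the topoisomerase that untangles sister chromosomes and a common mark of dividing cells, was at 858.7 to 1183 CPM in forelimb and 948.5 to 1117 CPM in hindlimb. Its log2 fold change of -0.03 ± 0.06 had a 95% interval from -0.16 to 0.11, and was -0.05 without number 4.

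PLK2, a polo-like kinase induced by serum and stress and known for roles outside mitosis, had the smallest p toward hindlimb. It was at 36.9, 33.0, 36.3, 33.9 and 36.3 CPM in forelimb and at 55.1, 39.6, 43.6, 36.1 and 43.2 CPM in hindlimb. All 5 pairs were higher in hindlimb, and the limbs overlapped through hindlimb replicate 4 alone (-0.29 ± 0.09, 95% interval -0.48 to -0.10, edgeR adjusted p 0.156). Over the alternatives its adjusted p ranged from 0.0727 to 1.0. Among CDKs that act on transcription rather than on the cycle, CDK9, the kinase of transcript elongation, had -0.28 ± 0.11 (edgeR adjusted p 0.265). It was at 12.9 to 19.9 CPM in forelimb and 16.7 to 26.1 CPM in hindlimb. CDK16, of the PCTAIRE group, had 0.17 ± 0.07 (edgeR adjusted p 0.315) and was higher in forelimb in 5 of 5 pairs.

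Counting directions over the whole set, 62 of the 96 fitted values lay toward hindlimb and 34 toward forelimb, where 50% of all genes tested lay toward hindlimb. In 8 genes the hindlimb library was higher in 5 of 5 pairs, against 7.06% of all genes, and in 3 genes the forelimb library was, against 7.78%. Without number 4 the split was 48 to 48 and the median log2 fold change was 0.00020. Leaving out another number kept 51 to 65 of the values toward hindlimb. Within pairs, the median log2 difference over the 96 genes was 0.04 and 0.01 for numbers 1 and 2, and -0.04, -0.11 and -0.06 for numbers 3, 4 and 5. Of the hindlimb libraries, number 4 was the highest for 46 of the 96 genes (47.9%), where it was the highest for 27.1% of all genes. The part in this of its higher sum of ectoderm markers and its lower sums of cartilage, endothelium, neural, immune and muscle markers was not tested.

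More genes were called between replicate numbers than between limbs. With limb in the model, 33 of the 96 genes (34.4%) were called between numbers (edgeR quasi-likelihood test of the number terms, adjusted over 15595 genes), against 25.8% of all genes tested. Among genes at 10 CPM or more the shares were 36.8% of 87 and 35.1%, so at matched level the share is near the background. Leaving out number 2, 3 or 4 left 19, 16 or 18 calls, when 18.6%, 16.5% and 17.2% of all genes were called. Not every omission lowered the count: the highest, given in the last section, was above 33. The median gene of the 96 spanned 1.38-fold between its lowest and highest number, and all genes tested had a median of 1.57-fold. These spans were not compared at matched level: the median level was 55.55 CPM in the 96 genes and 17.3 CPM in all genes tested.

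**Figure D3:**
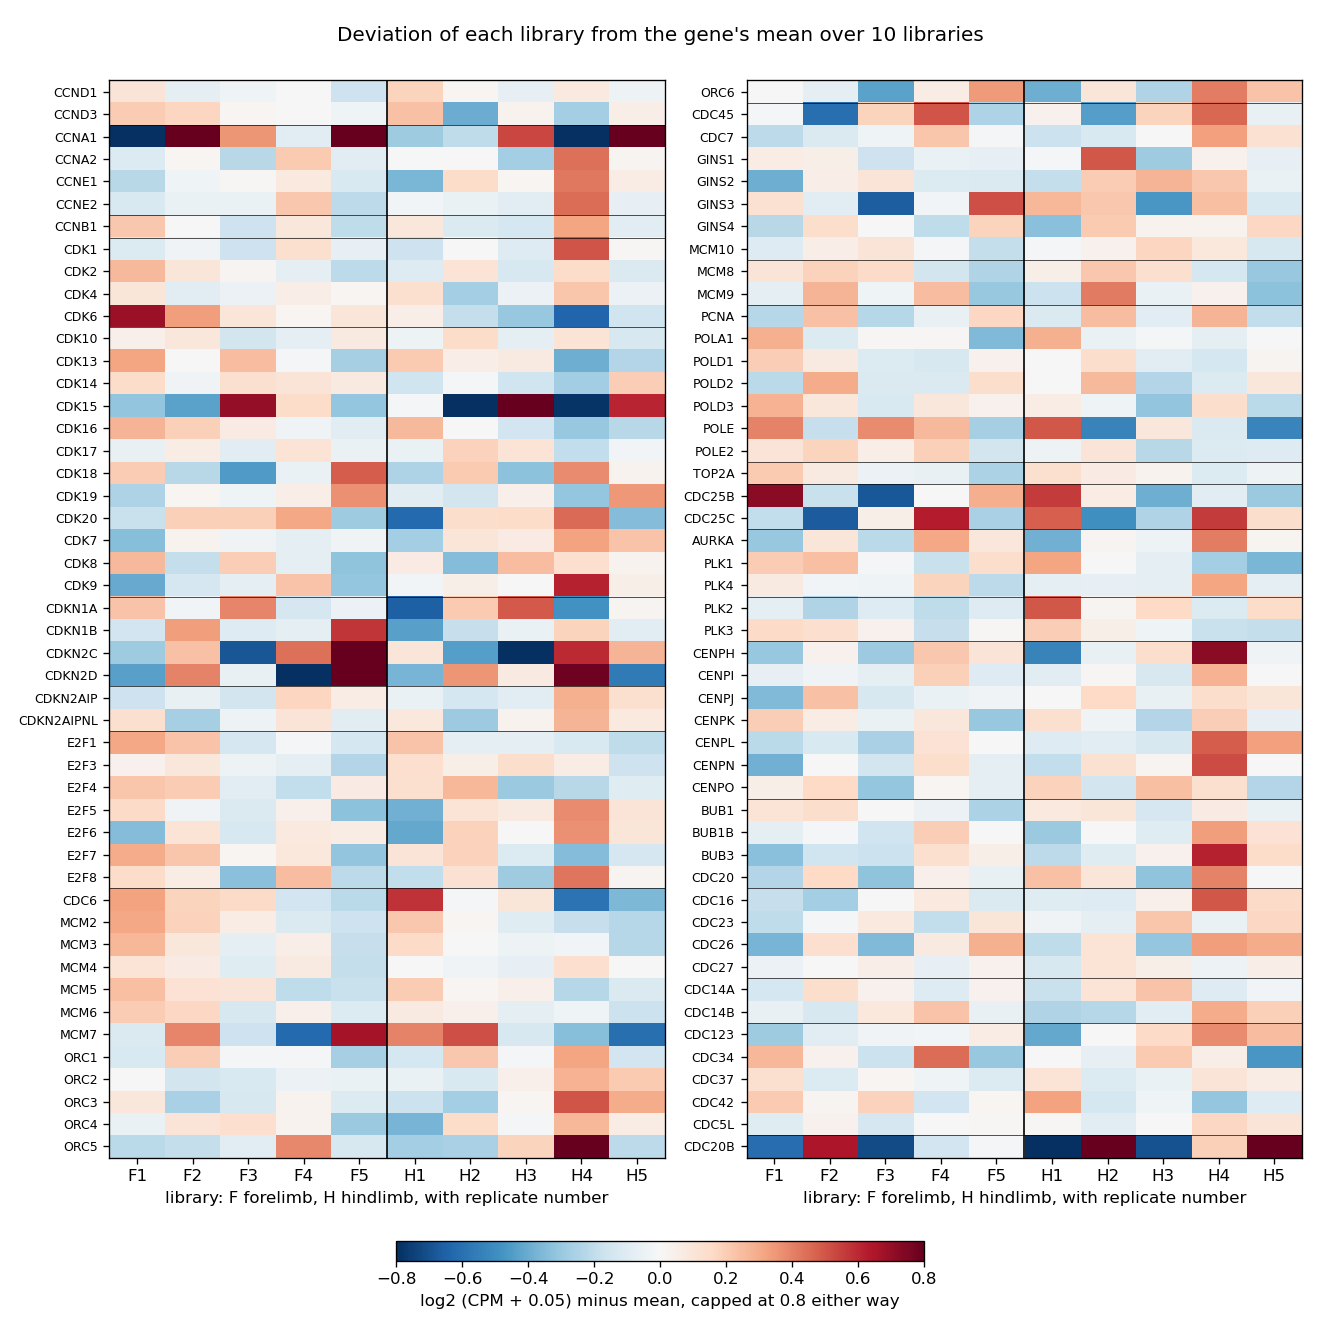
Deviation of each library from the gene's mean over 10 libraries, as log2 of CPM plus 0.05, for the 96 genes ordered by role (F, forelimb; H, hindlimb; digits, replicate numbers; colours capped at 0.8 either way). Replicate number 4 is high for ORC5, CDC45, AURKA and BUB3 in both limbs, and number 1 is high for CDC6, MCM2 and MCM5.

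CDC45, the helicase activator, had the smallest p between numbers of the 96. It was at 89.9, 59.6, 102.2, 127.9 and 76.3 CPM in forelimb replicates 1 to 5 and at 92.5, 66.6, 102.4, 124.4 and 86.9 CPM in hindlimb. Both limbs gave the same order of numbers, with number 4 highest and number 2 lowest, a span of 2.001-fold (edgeR adjusted p between numbers 0.000430), while the limbs differed by -0.07 ± 0.07 on the log2 scale. POLE spanned 1.79-fold, highest in number 1 and lowest in number 5 (adjusted p 0.00109, edgeR). ORC5 was at 62.8 CPM in forelimb replicate 4 and 41.3 to 45.2 CPM in the other forelimb libraries, and at 83.9 CPM in hindlimb replicate 4 and 39.7 to 54.5 CPM in the others (edgeR adjusted p 0.00327). Without number 4 the adjusted p of ORC5 was 0.257, whereas CDC45 and POLE kept 0.00550 and 0.00270. AURKA spanned 1.63-fold, from number 1 to number 4 (edgeR adjusted p 0.00468), and BUB3 1.56-fold between the same numbers (edgeR adjusted p 0.00708).

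The numbers were not ordered alike in all groups. Over the 96 genes, number 4 was the highest in 36 (37.5%, against 23.8% of all genes) and number 1 in 25 (26%, against 26.1%), while number 5 was in 9 (9.38%, against 16.8%). Among the 21 genes grouped as mitotic, number 4 was the highest in 12. The group holds cyclin B, CENP, checkpoint, anaphase promoting complex and CDC25 genes with AURKA, PLK1 and PLK4. PLK4 and CENPJ are counted in it whatever their role. Among the MCM2 to MCM7 helicase subunits number 1 was the highest in 4 of 6, and among the ORC subunits number 4 was in 4 of 6 and number 1 in 0. The summed level of MCM2 to MCM7 was 1603, 1529, 1359, 1334 and 1283 CPM in forelimb replicates 1 to 5 and 1533, 1423, 1337, 1316 and 1240 CPM in hindlimb. That of the ORC subunits was 326.6, 337.8, 329.2, 356.7 and 307.0 CPM in forelimb and 289.7, 343.5, 341.7, 455.0 and 351.6 CPM in hindlimb. These groupings were made after the values were seen and carry no test.

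**Figure D4:**
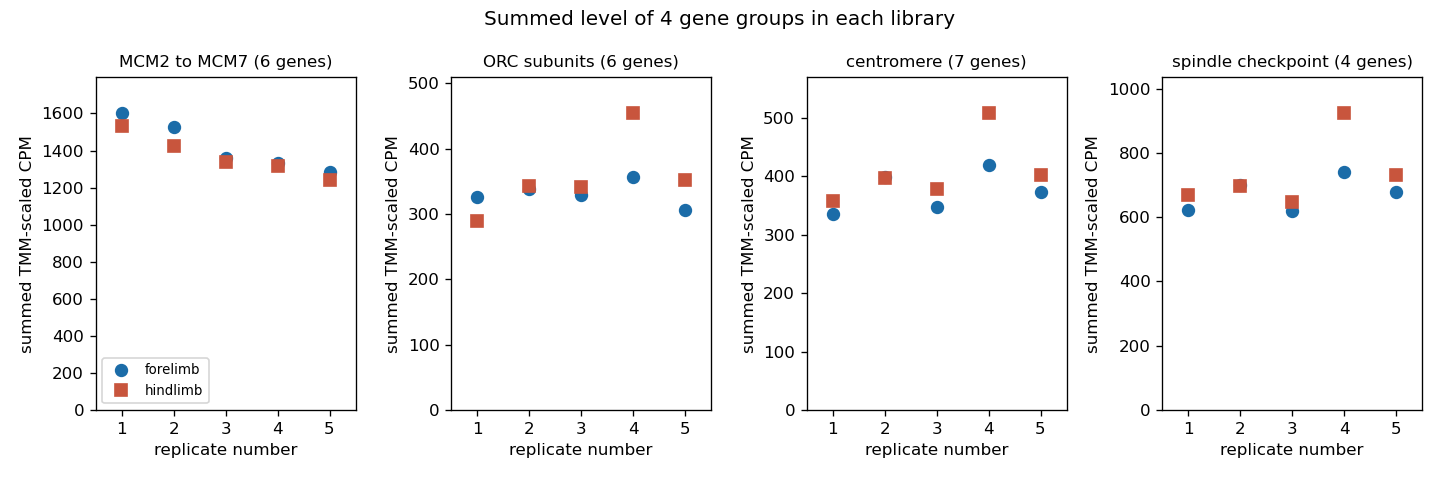
Summed TMM-scaled CPM of 4 gene groups in each library (circles, forelimb; squares, hindlimb) by replicate number. Hindlimb replicate 4 is the highest library for the ORC, centromere and spindle checkpoint groups, while MCM2 to MCM7 are highest in number 1, at 1603 and 1533 CPM. The group titled centromere holds all 7 genes with a CENP symbol, CENPJ included, whatever their role.

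Other genes of replication and mitosis, outside the symbols sought, were taken from 4 lists: partners in replication, retinoblastoma and DREAM complex genes, mitotic partners, and checkpoint and entry kinases. Of 100 listed genes 73 were measured under these symbols and tested. Between limbs 0 were called (0 also with DESeq2), where 1.33% of all genes were. An unadjusted edgeR p under 0.05 was given to 10 (13.7%), against 13.8% of all genes, so the share is near the background. Of these 10, 4 lay toward forelimb, where 7.44% of all genes did, and 6 toward hindlimb, where 6.35% did. RRM1, the large subunit of the enzyme that makes deoxynucleotides, had a log2 fold change of 0.23 ± 0.07 (edgeR adjusted p 0.137), and TPX2, a spindle assembly factor, had 0.23 ± 0.08 (adjusted p 0.227). Toward hindlimb, TK1, a thymidine kinase of S phase, had -0.23 ± 0.08 (edgeR adjusted p 0.220) and RFC4, a subunit of the clamp loader, had -0.22 ± 0.07 (adjusted p 0.189). The median of the 73 was -0.03. Between numbers 33 of the 73 (45.2%) were called, against 25.8% of all genes, and at 10 CPM or more 33 of 72 (45.8%), against 35.1%. Number 4 was the highest in 37 of the 73, a larger share than the 23.8% of all genes, and number 1 in 24, against 26.1% of all genes. NCAPG, a condensin subunit, spanned 2.001-fold between numbers 1 and 5 (edgeR adjusted p 0.000304). In hindlimb, number 4 was the highest library for 42 of the 73, where it was for 27.1% of all genes.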

How the data were processed

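RNA was measured in 10 libraries (TruSeq Stranded mRNA, per the labels' protocols). Each deposited table held raw read counts per gene for 1 library. The authors used FastQC, STAR, featureCounts and DESeq2, per the submitters' processing notes. The genome build, the annotation, the strand setting and how shared reads were handled are not given in the sources used here, so counts of overlapping genes and close paralogues are uncertain. A further table deposited by the authors, on forelimb against hindlimb, lists the mean signal as a normalised count, the log2 fold change with its error, a score (the test's statistic) and p-values. It alone gives gene symbols. No sequences were used here, since no source here held them.

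In R 4.3.3, counts were fitted with edgeR 4.0.16 (robust quasi-likelihood, TMM factors 0.928 to 1.03, minimum count 10, minimum total 15), with limb and replicate number as terms. This left 15595 genes. Standard errors and 95% intervals came from the coefficient's weighted variance and the moderated quasi-dispersion. The fits and intervals were also run on simulated counts. These gave every gene the same dispersion and drew number effects separately for each gene. They therefore do not show how the fits do on the real libraries. CPM and fold changes are relative to all counts. Alternatives were a fit without block, RLE factors, other filters, DESeq2 1.42.0, limma 3.58.1 (voom), and fits without each replicate number. A lone library has no partner under the block, so numbers were left out as pairs.

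To see whether numbers pair the libraries, deviations from each limb's mean were correlated over 9747 genes. Forelimb and hindlimb libraries sharing a number gave 0.51 to 0.75, and those with unlike numbers gave -0.41 to 0.12. Because each limb's mean was taken out, high values for like numbers by themselves push those for unlike numbers down. The low values for unlike numbers are therefore not separate evidence of pairing. The comparison paired by number was set together with the choice of genes, not picked because of this check. The labels do not say what a number marks, and nothing says that libraries came from separate embryos. Under the block, p-values set a difference against the spread left after limb and number are fitted. They refer to these samples, and a spread between embryos cannot be read from them. No library repeats another: the smallest chi-square over its degrees of freedom was 41.9 within a limb.

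The genes and lists were chosen with earlier results of these data known. The text names genes called, the 5 with the smallest p in each direction and between numbers, and a list of role representatives. CCND3, CCNE1, CDKN2C, CDKN2D, MCM7, CCNA1, CDK15, CDC20B, CENPK, CDC27, BUB1B and the partner genes were named after their values were seen.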

Additional observations from a re-analysis of the deposited data

Results flagged for a closer look

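Over both limbs, 70 sets of 5 libraries were examined for a library at one end whose gap to its nearest neighbour exceeded 0.71 of the range, which chance gives in about 5% of sets. The sets were the named genes, the total count and the share of counts in the 96 genes. There were 7 such values. In hindlimb replicate 4, CDK1 was at 457.1 CPM (287.7 to 323.9 in the other hindlimb libraries), CCNE2 at 34.3 CPM (23.6 to 24.7) and CDK9 at 26.1 CPM (16.7 to 17.6). In hindlimb replicate 1, E2F1 was at 35.2 CPM (26.1 to 28.6) and POLA1 at 151.6 CPM (118.3 to 124.5). In forelimb replicate 4, ORC5 was at 62.8 CPM (41.3 to 45.2) and the total count was 54998469 (42151036 to 45608067).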

How the results depend on the processing

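Over 11 alternatives the 33 named genes gave 363 log2 fold changes, of which 348 kept their direction and stayed uncalled, 3 gained a call (CDK6 with no filter on low counts and with DESeq2, and POLE without number 1) and 12 changed sign, none of them called. The shares at 10 CPM or more and the direction counts by gene group were chosen after the data were seen. The number of the 96 genes called between limbs was 1 with no filter on low counts and 1 with DESeq2, and 0 to 1 when a replicate number was left out. Without the replicate block, 2 of the 96 had an unadjusted p under 0.05 and 31 of all genes were called, where the block gave 10 and 208. With no filter 697 genes were called and with DESeq2 545; the causes were not tested. Without a number, calls over all genes ran from 58 to 330, and the 96 gave 5 to 15 at an unadjusted p under 0.05. Partner genes gave 0 to 1 calls (RRM1, without number 1). Calls between numbers ran, without a number, from 16 to 40 in the 96 and from 2583 to 4309 in all genes; with no filter they were 45 and 5989, and with DESeq2 46 and 5567. The sign changes came when a number was left out, with these lowest and highest log2 fold changes over such fits: CDKN1A -0.0099 and 0.27, CDK2 -0.037 and 0.10, CDK4 -0.028 and 0.055, CCNB1 -0.056 and 0.023, AURKA -0.028 and 0.035, TOP2A -0.049 and 0.023, PCNA -0.14 and 0.024, POLA1 -0.097 and 0.016, BUB1 -0.054 and 0.032. These fits hold fewer samples. Intervals within 1.5-fold numbered 82 to 90 over all alternatives.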
